A study of Danio rerio with 9 samples.

Results

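The genes described here encode enzymes that build cholesterol, the receptor that takes it up from lipoproteins and a protein that holds the pathway in check. They are hmgcs1, hmgcra, hmgcrb, idi1, sqlea, lss, tm7sf2, nsdhl, ldlra and insig1. All array probes whose RefSeq accession belongs to these genes were taken, which gave 18 of 43603 probes and 10 of the 12900 genes that could be named on the array. Each gene had between 1 and 4 probes, and 5 of them had 1. The 9 arrays measured RNA from intact zebrafish larvae aged 5 days post fertilization, with 3 arrays per group from experiments that the labels call independent. Control larvae were held in 1% DMSO for 1 h and then in vehicle for 1 h, and the neomycin group was held in 1% DMSO for 1 h before 1 h in 200 µM neomycin. In the group given both compounds, 1 h in 50 µM tacrine came before the hour in 200 µM neomycin. Neomycin is an aminoglycoside antibiotic that is toxic to sensory hair cells, and tacrine is an inhibitor of acetylcholinesterase. The labels give no DMSO level for larvae given tacrine and no group with tacrine alone, so tacrine, its solvent and its action without neomycin cannot be told apart.

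Cholesterol is built from acetyl-CoA. The first steps make mevalonate, the next ones turn mevalonate into isoprene units and join them to squalene, and the last ones close squalene into a sterol ring and trim it. In vertebrates the genes of these steps and the LDL receptor gene are targets of the transcription factor SREBP2, which is held in the endoplasmic reticulum by INSIG proteins while sterols are plentiful and is released when sterols run low. In the larva the liver, the intestine, the nervous system and the yolk all handle cholesterol.

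Signals are given as log2 values relative to the 75th percentile of the same array, so 0 is that percentile and a step of 1 is a 2-fold change. The percentile itself was 105 to 137 on control arrays, 142 to 170 on neomycin arrays and 151 to 226 on arrays with both compounds, so overall brightness moved with the group, and its part in the results was not tested. Levels of different probes cannot be compared with each other. Of the 18 probes, 16 cleared the background flag on 3 or more of the 9 arrays and were tested. The other 2, the dimmer probes of hmgcra and lss, were well above background on no array. Every gene therefore had at least 1 tested probe, and the brightest of these stands for the gene. On each of these 10 probes all 9 arrays were well above background. The 9 arrays came on 3 slides, and each slide carried 1 array of every group. On every slide place 1 held the control, place 3 the neomycin array and place 4 the array with both compounds, so the place and the group cannot be told apart. Since the RNA is of whole larvae, more cells of a type and more RNA per cell cannot be told apart either.

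In larvae given both compounds, hmgcs1, hmgcra, hmgcrb, sqlea and nsdhl rose against control and tm7sf2 fell, while idi1, lss, ldlra and insig1 did not pass the test. The rises were between 1.66-fold for nsdhl and 3.12-fold for sqlea, and tm7sf2 was 1.73-fold lower. Under a normexp background correction described below, the differences of sqlea, nsdhl, lss and ldlra turned. Against neomycin alone, hmgcs1 (1.98-fold) and hmgcra (2.23-fold) rose and no member fell. Neomycin alone moved none of the 10 genes past the threshold. A gene was said to rise or fall where limma gave an adjusted p under 0.05 (Benjamini-Hochberg over all 31671 tested probes), and adjusted p-values below are from this fit with n = 3 per group.

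**Figure D1:**
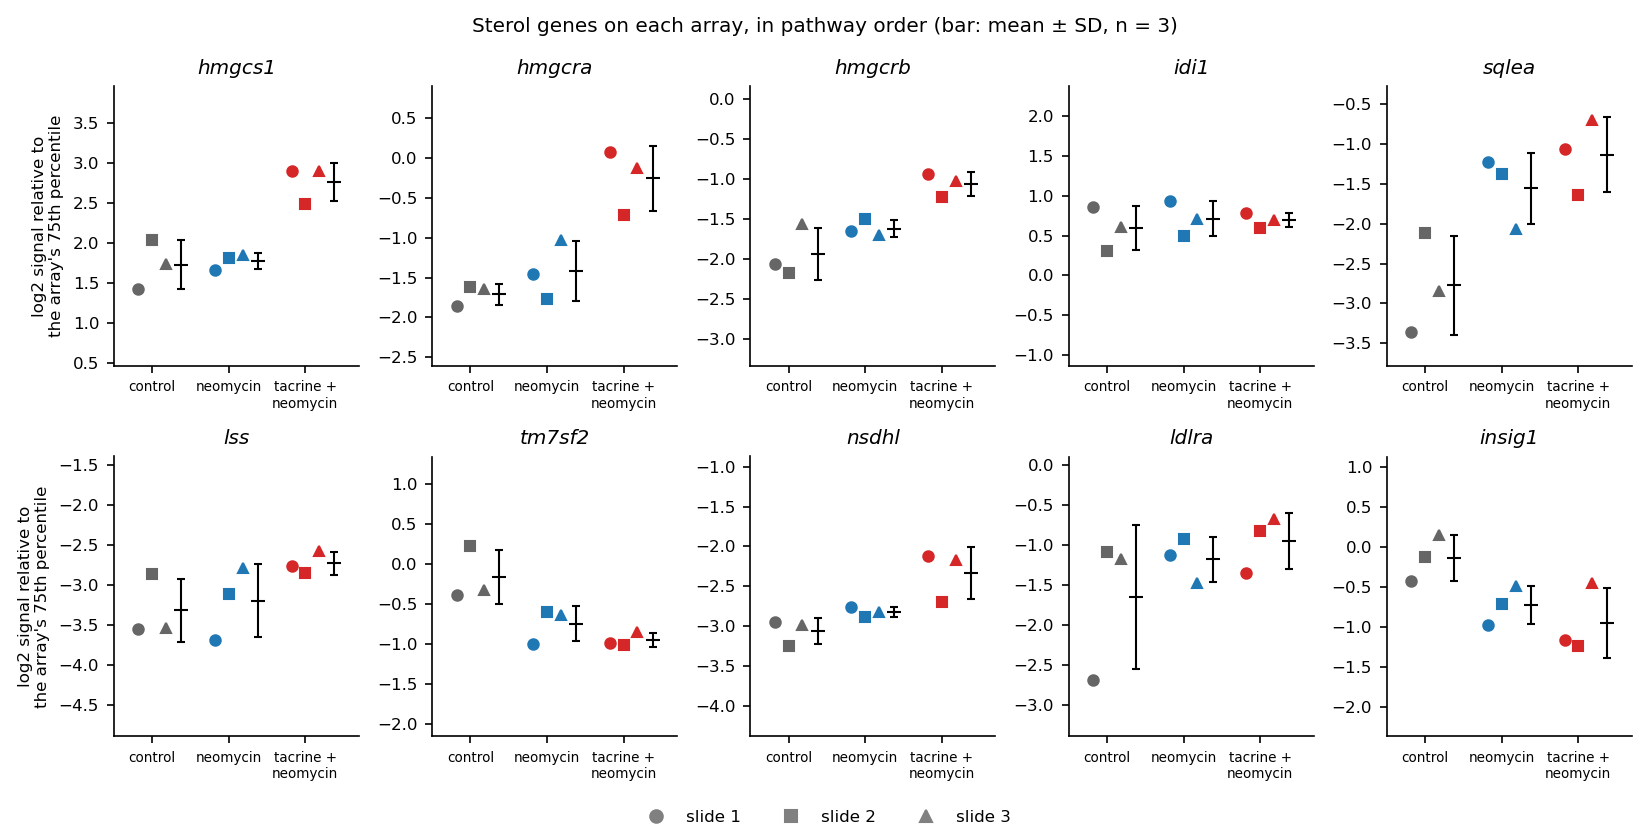
Log2 signal relative to the array's 75th percentile (y axis, each panel spanning the same range) on the 9 arrays for the probe that stands for each gene; the marker shape gives the slide, and the black bar is the mean ± SD of 3 arrays. The arrays with both compounds lie above all control arrays for hmgcs1, hmgcra, hmgcrb, sqlea, lss and nsdhl and below them for tm7sf2 and insig1, whereas the groups overlap for idi1 and ldlra.

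The pathway opens with hmgcs1, the cytosolic synthase that makes HMG-CoA. Its brightest probe read 1.42, 2.03 and 1.73 on the 3 control arrays, 1.66, 1.81 and 1.85 after neomycin and 2.90, 2.48 and 2.90 after both compounds. The lowest array with both compounds lay above the highest of the other 6, while control and neomycin overlapped. The mean rose from 1.73 ± 0.31 (SD, n = 3) in controls and 1.77 ± 0.10 with neomycin to 2.76 ± 0.24 with both compounds. Against control this was a log2 difference of 1.04 (SE 0.19, 2.05-fold, 95% interval 1.52 to 2.76-fold, adjusted p = 0.0173), and against neomycin one of 0.99 (SE 0.19, 95% interval 1.47 to 2.67-fold, adjusted p = 0.0319). With slide added to the fit as a block the latter did not pass (adjusted p = 0.0547). Neomycin against control gave 0.05 (SE 0.19, adjusted p = 0.978), with a 95% interval from -0.38 to 0.48.

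Of the 3 dimmer probes of hmgcs1, the second and the next one gave positive differences in all 3 comparisons. Its second probe read -3.63, -2.79 and -2.68 in control larvae, -2.55, -2.04 and -2.98 after neomycin and -1.5, -1.80 and -1.37 after both compounds. It rose by 1.47 against control (SE 0.30, adjusted p = 0.0261), and it differed by 0.96 from neomycin (SE 0.30, adjusted p = 0.14). On the next probe the difference was 1.28 against control (SE 0.42, adjusted p = 0.108) and 0.86 against neomycin (SE 0.42, adjusted p = 0.332). The fourth probe was well above background on the 3 arrays with both compounds and on none of the other 6. It entered the fit only through the group in which it was bright, so its values are a description and its test is not used. Its means were -4.91 with both compounds, -5.65 after neomycin and -6.39 in controls. No fold is given against control, since the dimmest signals that cleared the flag on the control arrays were at least as bright. None is given against neomycin either, since no neomycin array cleared the flag at this probe.

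HMG-CoA reductase, which makes mevalonate and sets the pace of the pathway, has a pair of genes here, hmgcra and hmgcrb. hmgcra read -1.86, -1.62 and -1.65 in control larvae, -1.45, -1.77 and -1.03 after neomycin and 0.07, -0.72 and -0.13 after both compounds. All 3 arrays with both compounds lay above the other 6, and the one on slide 2 was the lowest of them. Against control hmgcra rose by 1.45 (SE 0.24, 2.73-fold, 95% interval 1.87 to 4.0-fold, adjusted p = 0.0121). Against neomycin it rose by 1.16 (SE 0.24, 95% interval 1.53 to 3.26-fold, adjusted p = 0.0436). The latter passed in 5 of 10 other settings, and not with normexp under either scaling, without the filter (adjusted p = 0.076), in a fit of only the 6 arrays compared (0.0839) or in the authors' deposited matrix (0.82, adjusted p = 0.0534). Its difference between neomycin and control was 0.29 (SE 0.24, adjusted p = 0.825).

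hmgcrb read -2.07, -2.18 and -1.57 in control larvae, -1.66, -1.51 and -1.71 after neomycin and -0.94, -1.23 and -1.03 after both compounds. Here too the arrays with both compounds lay above all others, while neomycin and control overlapped. It rose by 0.87 against control (SE 0.18, 1.83-fold, adjusted p = 0.0264). Its difference from neomycin was 0.56 (SE 0.18, adjusted p = 0.148, 95% interval 0.15 to 0.97), and that between neomycin and control was 0.31 (SE 0.18, adjusted p = 0.689). Whether the 2 reductase genes differ from each other in response was not tested.

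The isomerase idi1, which interconverts the isoprene units from which squalene is built, read 0.86, 0.31 and 0.61 in control larvae, 0.93, 0.49 and 0.71 after neomycin and 0.78, 0.60 and 0.70 after both compounds. All 3 groups overlapped, and in each group the array of slide 2 was the lowest. The differences were 0.12 for neomycin against control (adjusted p = 0.929), -0.02 for both compounds against neomycin (adjusted p = 0.977) and 0.10 for both compounds against control (SE 0.18, adjusted p = 0.796). The 95% interval of the last, -0.30 to 0.50, leaves out a 1.52-fold rise, the lower bound found for hmgcs1. It also leaves out the lower bounds of hmgcra (1.87-fold) and sqlea (1.77-fold), but not those of hmgcrb (1.38-fold) and nsdhl (1.26-fold).

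sqlea, the squalene epoxidase that prepares squalene for ring closure, read -3.36, -2.12 and -2.84 in control larvae, -1.23, -1.38 and -2.07 after neomycin and -1.07, -1.64 and -0.70 after both compounds. Its neomycin arrays lay above all controls, by less than 0.1 between the nearest arrays, and they overlapped with those given both compounds. Neomycin against control gave 1.22 (SE 0.36, 2.32-fold, unadjusted p = 0.00832), which did not pass after adjustment (adjusted p = 0.334). That difference was -0.18 under the normexp correction described below, 0.40 under normexp with quantile normalization and 0.58 in the authors' deposited matrix. Both compounds against control gave a rise of 1.64 (SE 0.36, 3.12-fold, 95% interval 1.77 to 5.50-fold, adjusted p = 0.0335), which passed in 4 of 10 other settings. It did not pass under the slide block (adjusted p = 0.0607), with normexp under either scaling, without the filter (0.0531), in a fit of only the 6 arrays compared (0.0546) or in the authors' deposited matrix (0.83, adjusted p = 0.0502). Both compounds against neomycin gave 0.42 (SE 0.36, adjusted p = 0.605, 95% interval -0.39 to 1.24). The processed signal of this probe was 11.2 to 24.2 on control arrays, 38.9 to 72.6 with neomycin and 48.7 to 108 with both compounds, so its control values are among the dimmer ones.

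lss, the cyclase that folds the epoxide into lanosterol, read -3.55, -2.86 and -3.54 in control larvae, -3.69, -3.11 and -2.79 after neomycin and -2.76, -2.85 and -2.57 after both compounds. The arrays with both compounds lay just above all controls and overlapped with neomycin. No comparison passed: the difference was 0.59 against control (SE 0.26, adjusted p = 0.223, 95% interval 0.00 to 1.19) and 0.47 against neomycin (SE 0.26, adjusted p = 0.399).

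Of the enzymes that trim the ring, tm7sf2, a sterol C14 reductase, ran opposite to the first steps. It read -0.38, 0.23 and -0.32 in control larvae, -0.99, -0.60 and -0.63 after neomycin and -0.98, -1.01 and -0.85 after both compounds. All 6 arrays with neomycin lay below all controls, and the neomycin arrays overlapped with those given both compounds. It fell by 0.79 with both compounds against control (SE 0.19, 1.73-fold lower, adjusted p = 0.0451). Before the 75th percentile was subtracted, the groups overlapped. The processed signal of this probe was 88.9 to 123 on control arrays, 85.6 to 106 with neomycin and 75.1 to 114 with both compounds. The part of the scaling in the fall was not tested. Neomycin against control gave -0.58 (SE 0.19, unadjusted p = 0.0136, adjusted p = 0.369), and both compounds against neomycin -0.21 (SE 0.19, adjusted p = 0.634). Its second probe had differences of -0.66 against control (SE 0.24, adjusted p = 0.138), -0.38 for neomycin against control and -0.28 for both compounds against neomycin, none of which passed.

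nsdhl, a dehydrogenase that helps remove the methyl groups at carbon 4 of the ring, read -2.95, -3.24 and -2.98 in control larvae, -2.76, -2.88 and -2.82 after neomycin and -2.12, -2.70 and -2.17 after both compounds. The 3 groups did not overlap and were ordered control, neomycin, both compounds. It rose by 0.73 against control (SE 0.18, 1.66-fold, adjusted p = 0.0466). Its difference was 0.49 against neomycin (SE 0.18, adjusted p = 0.191) and 0.24 between neomycin and control (SE 0.18, adjusted p = 0.795).

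Uptake is represented by ldlra, a receptor for low density lipoprotein. It read -2.69, -1.09 and -1.17 in control larvae, -1.13, -0.93 and -1.48 after neomycin and -1.35, -0.82 and -0.68 after both compounds. The first control array lay far below the other 8, and the groups overlapped in all comparisons. The difference of 0.70 against control had a wide interval (SE 0.40, adjusted p = 0.343, 95% interval -0.20 to 1.61), and the 0.23 against neomycin did not pass either (adjusted p = 0.816). Without the first control array the difference against control was 0.18, and that between neomycin and control was -0.05 in place of 0.47.

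insig1, whose protein keeps SREBP in the endoplasmic reticulum and also promotes the breakdown of HMG-CoA reductase, gave negative differences. Its brightest probe read -0.43, -0.13 and 0.15 in control larvae, -0.97, -0.71 and -0.49 after neomycin and -1.17, -1.24 and -0.45 after both compounds. All 6 arrays with neomycin lay below the 3 controls, and the neomycin arrays overlapped with those given both compounds. The highest array with both compounds (-0.45) lay only just below the lowest control (-0.43). Both compounds against control gave -0.82 (SE 0.25, unadjusted p = 0.0089), which did not pass after adjustment (adjusted p = 0.0887). Neomycin against control gave -0.59 (SE 0.25, adjusted p = 0.519), and both compounds against neomycin -0.23 (SE 0.25, adjusted p = 0.684). When slide was added to the fit as a block, the first of these passed (adjusted p = 0.0249), as it did without the last array with both compounds (-1.07, adjusted p = 0.0474). Its dimmer probes differed from control by -0.46 (SE 0.22, adjusted p = 0.262) and -0.90 (SE 0.32, adjusted p = 0.135) with both compounds. On each of these dimmer probes the controls overlapped with the neomycin arrays and with those given both compounds. All 9 differences over the 3 probes and 3 comparisons were negative.

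**Figure D2:**
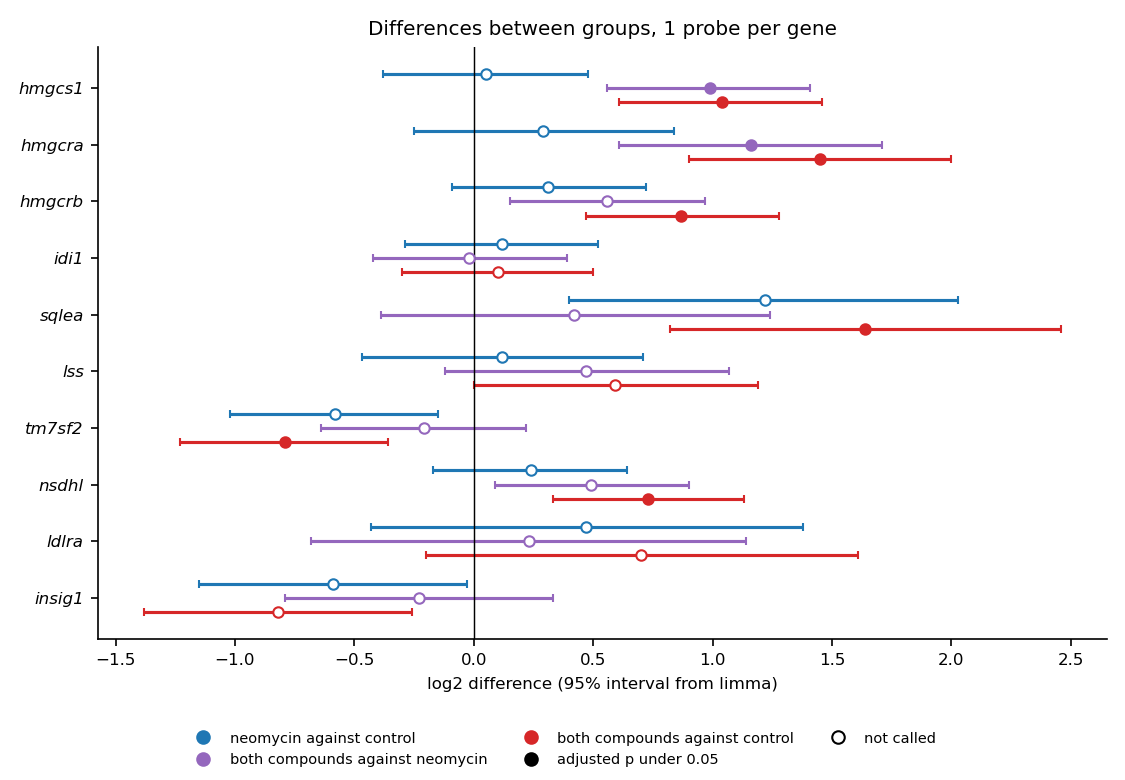
Log2 differences between groups (x axis) with 95% intervals from limma for the probe that stands for each gene, in pathway order; filled points have an adjusted p under 0.05. Against control (red) hmgcs1, hmgcra, hmgcrb, sqlea and nsdhl lie to the right of 0 with intervals that leave it out, and tm7sf2 lies to the left at -0.79, though sqlea, nsdhl, lss and ldlra turn under a normexp background correction. The intervals of idi1 span 0 in all 3 comparisons.

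**Figure D3:**
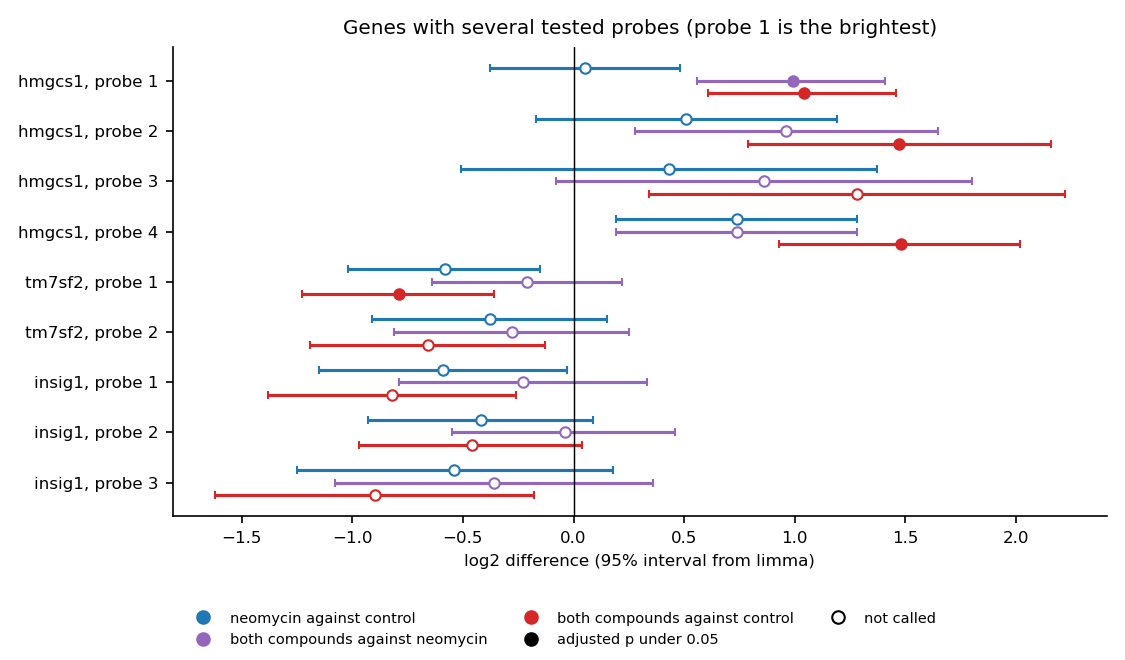
Log2 differences (x axis) with 95% intervals for each tested probe of the 3 genes with several tested probes; filled points have an adjusted p under 0.05. The differences of hmgcs1 lie to the right of 0 and those of tm7sf2 and insig1 to the left; the fourth probe of hmgcs1 was above background only with both compounds, so its points show neither a size nor a test.

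The members were chosen with earlier results of these data known. Their counts beside the shares of all genes are therefore a description in every comparison, and not a test of the set. Counted over the 10 genes, both compounds against control gave 5 calls higher and 1 lower. Over all 11326 named genes, with 1 probe each, 3.37% were called higher and 2.29% lower. In a fit of probes well above background on all 9 arrays, which leaves 14 probes of the members, 6 were called higher and 1 lower, where 7.96% of all such probes were called. The groups did not overlap at 6 members that were higher, against 13.7% of all genes, and at 2 that were lower, against 16.2%. Positive differences were found at 8 of 10 members and at 44.4% of all genes. The median difference was 0.72 over the members (-0.10 under the normexp correction described below) and -0.05 over all genes.

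In both compounds against neomycin, 2 of the 10 genes were called higher and none lower, where 1.92% of all genes were called higher and 0.848% lower. In the fit of probes above background on all 9 arrays, 2 of 14 were called, both higher, against 3.7% of all such probes. The groups did not overlap at hmgcs1, hmgcra, hmgcrb and nsdhl, all higher, whereas 12.3% of all genes were higher without overlap and 14.5% lower. Of the 10 differences 7 were positive, compared with 46.3% of all genes, and the median was 0.45 (0.09 and 0.11 under normexp with either scaling and 0.18 in the authors' deposited matrix) against -0.03.

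With neomycin against control there was no call among the members in limma. This was the comparison with the fewest calls: 0.117% of all tested probes, and of all genes 0.115% higher and 0.0441% lower. At an unadjusted p under 0.05 there were 3 members, sqlea, tm7sf2 and insig1, where 8.18% of all genes lay. The groups did not overlap at sqlea and nsdhl, which were higher (6.64% of all genes), and at tm7sf2 and insig1, which were lower (6.88%). Of the 10 differences 8 were positive, compared with 48.2% of all genes, and the median was 0.18 (-0.27 under the normexp correction) against -0.01. The 3 comparisons share arrays, so their values for a gene are not independent of each other.

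On the 3 slides the median over the members for both compounds against control was 0.98, 0.37 and 0.68. All members except idi1 had the same sign on the 3 slides, though lss gave only 0.01 on slide 2. The share of all genes with the same sign was not counted. hmgcra differed by 1.93, 0.90 and 1.53, hmgcs1 by 1.48, 0.45 and 1.17, and sqlea by 2.29, 0.48 and 2.14. Slide 2 thus gave the smallest rise for each of these. For hmgcrb the slides gave 1.13, 0.94 and 0.54, for nsdhl 0.83, 0.54 and 0.82 and for tm7sf2 -0.61, -1.24 and -0.53. In both compounds against neomycin, hmgcra differed by 1.52, 1.05 and 0.91 and hmgcs1 by 1.24, 0.68 and 1.04.

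The array with both compounds on slide 2 was the lowest of its group at 9 of the 10 members, the exception being ldlra, and it was the lowest at 38.5% of all genes. Among the members it lay lowest also for tm7sf2 and insig1, which were lower than in controls. The first control array was the lowest of its group at 7 members and at 33.1% of all genes. Both arrays were kept. The median over the members against control was 0.79 without the former and 0.63 without the latter.

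**Figure D4:**
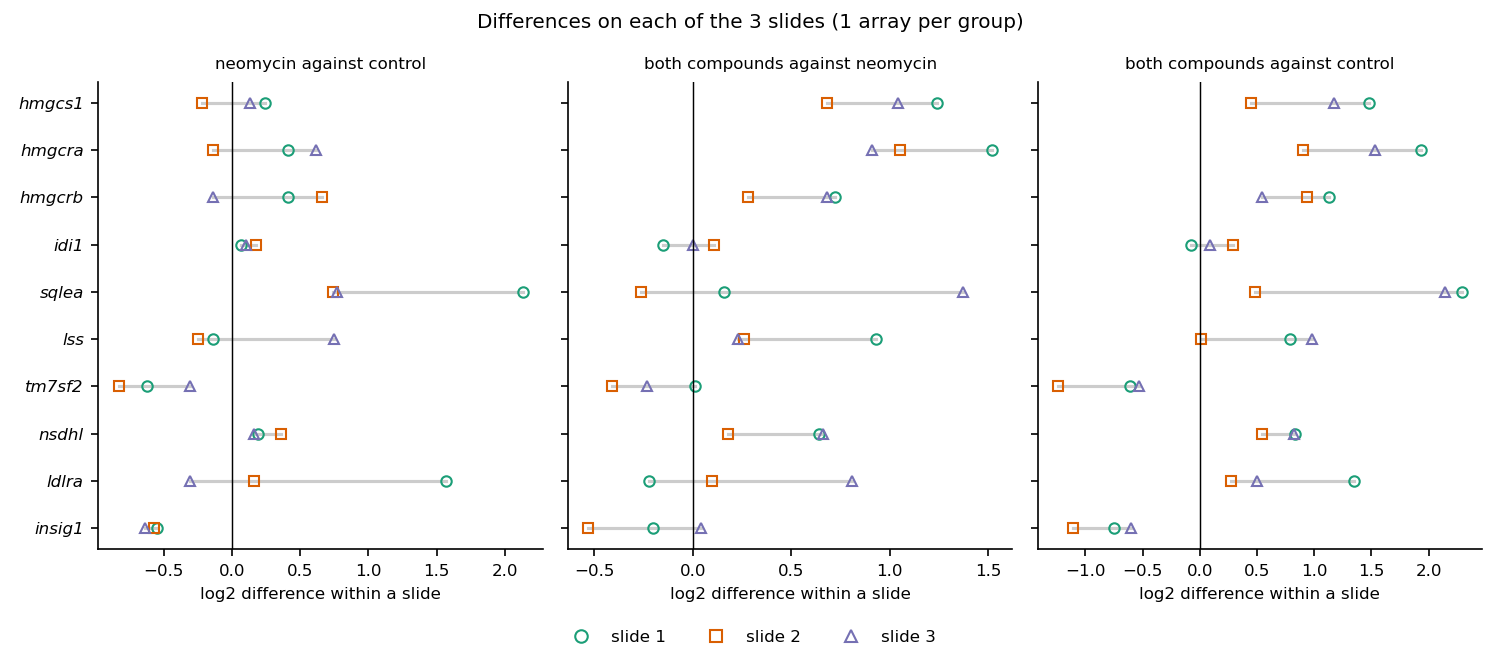
Log2 differences within each slide (x axis), 1 array against 1, for the 10 genes and the 3 comparisons. Against control (right) all 3 slides lie on the same side of 0 for every gene except idi1, and slide 2 gives 0.45 for hmgcs1 and 0.48 for sqlea where slide 1 gives 1.48 and 2.29. For lss slide 2 gives 0.01.

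The calls were close to the threshold. Of 10 other settings, hmgcs1 and hmgcra passed against control in 9 each, hmgcrb in 7, nsdhl in 6, tm7sf2 in 5 and sqlea in 4, and against neomycin hmgcs1 passed in 7 and hmgcra in 5. In 9 further fits 1 array each was dropped. Where that array was of the group not compared, the difference stayed as it was, and only its spread and the adjustment could change. hmgcra kept its call against control in all 9 fits, with a difference between 1.29 and 1.68 and an adjusted p of at most 0.0475. hmgcs1 lost it without control 3 (adjusted p = 0.0543) and without the first (0.0646) or the last (0.0641) array with both compounds, and its difference stayed between 0.88 and 1.19. hmgcrb lost its call without control 1 (0.0716) or 2 (0.0748) and without the first (0.0901) or last (0.0847) array with both compounds, with differences between 0.75 and 1.06. sqlea lost it without control 1 (0.0873) or 3 (0.0904) and without the same 2 arrays with both compounds (0.0987 and 0.107), with differences between 1.35 and 1.97. tm7sf2 and nsdhl lost it in 8 of 9 fits each, all but the fit without neomycin 1 for tm7sf2 and all but the fit without the second array with both compounds for nsdhl. Their differences lay between -0.90 and -0.60 and between 0.62 and 0.91, with adjusted p up to 0.124 and 0.148.

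Against neomycin, hmgcra lost its call in 7 of 9 fits (adjusted p up to 0.148, difference 0.98 to 1.39), that is in all but those without neomycin 3 and without the second array with both compounds. hmgcs1 lost it in 6 (up to 0.122, difference 0.92 to 1.12), namely without control 3, without any neomycin array and without the first or last array with both compounds. Under the slide block, hmgcs1 against neomycin (adjusted p = 0.0547) and sqlea against control (0.0607) no longer passed. When the background was corrected by normexp with an offset of 50 and the same scaling was used, none of the 10 genes passed in any comparison. Against control the differences of sqlea (-0.06), nsdhl (-0.42), lss (-0.69) and ldlra (-0.14) turned, and that of hmgcrb was 0.08. In neomycin against control 6 of the 10 turned, namely hmgcra, hmgcrb, sqlea, lss, nsdhl and ldlra, and against neomycin only lss did (-0.01). That setting called 67 of all probes against control, where the values as reported gave 1875.

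The other enzymes between acetyl-CoA and cholesterol were described by the same test. Of 18 listed genes 13 were on the array and tested, and none passed in any of the 3 comparisons on its brightest probe. The 13 include pmvk, which cleared the background flag on none of the controls. Against control 8 of the 13 had an unadjusted p under 0.05, as did 22% of all genes, 10 of 13 differences were positive, where 44.4% of all genes were, and the median was 0.39 where all genes gave -0.05. The 8 include sc5d, which was lower, and pmvk, which passed the filter only through the groups given neomycin. Against neomycin 2 of the 13 had an unadjusted p under 0.05, a share no higher than the 17.4% of all genes, and 10 differences were positive, against 46.3% of all genes, with a median of 0.32 against -0.03. The median for neomycin against control was 0.09, with 8 positive differences and 1 unadjusted p under 0.05 (48.2% and 8.18% of all genes).

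The 4 of these with the smallest p in both compounds against neomycin act on mevalonate (mvk, mvda) or after lanosterol (cyp51, hsd17b7). cyp51, which removes the methyl group at carbon 14 of lanosterol, read -1.47, -0.85 and -1.54 in control larvae, -1.43, -1.05 and -1.08 after neomycin and -0.18, -0.92 and -0.03 after both compounds. The arrays with both compounds lay above those with neomycin and overlapped with controls, and the one on slide 2 was again the lowest. Its differences were 0.81 against neomycin (SE 0.27, adjusted p = 0.163) and 0.91 against control (SE 0.27, adjusted p = 0.0867). hsd17b7, a ketosteroid reductase that acts after nsdhl, differed by 0.52 from neomycin (SE 0.20, adjusted p = 0.233). mvk, the kinase of mevalonate, differed by 0.59 (SE 0.28, adjusted p = 0.327), and mvda, the decarboxylase that makes the isoprene unit, by 0.46 (SE 0.22, adjusted p = 0.327). Against control mvda differed by 0.79 (SE 0.22, adjusted p = 0.0711; 0.0234 under the slide block).

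Of all 26 tested probes of these 13 enzymes, 1 passed against control, no larger a share than the 5.92% of all tested probes, and none against neomycin, where 2.67% of all did. It is a dimmer probe of ebp, a sterol isomerase late in the pathway, and it was named after its values were seen. It differed by 0.79 in both compounds against control (SE 0.19, adjusted p = 0.0485), passed in 1 of the 9 fits that left out an array, and did not pass under the slide block (adjusted p = 0.0511). The brightest probe of ebp differed by 0.56 (SE 0.22, adjusted p = 0.172). Enzymes at or below 0 were lbr, which shares the C14 reduction with tm7sf2 (-0.20 against control, SE 0.14, adjusted p = 0.451), sc5d (-0.46, SE 0.15, adjusted p = 0.103) and dhcr7 (-0.25, SE 0.40, adjusted p = 0.774), which act in the last steps.

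**Figure D5:**
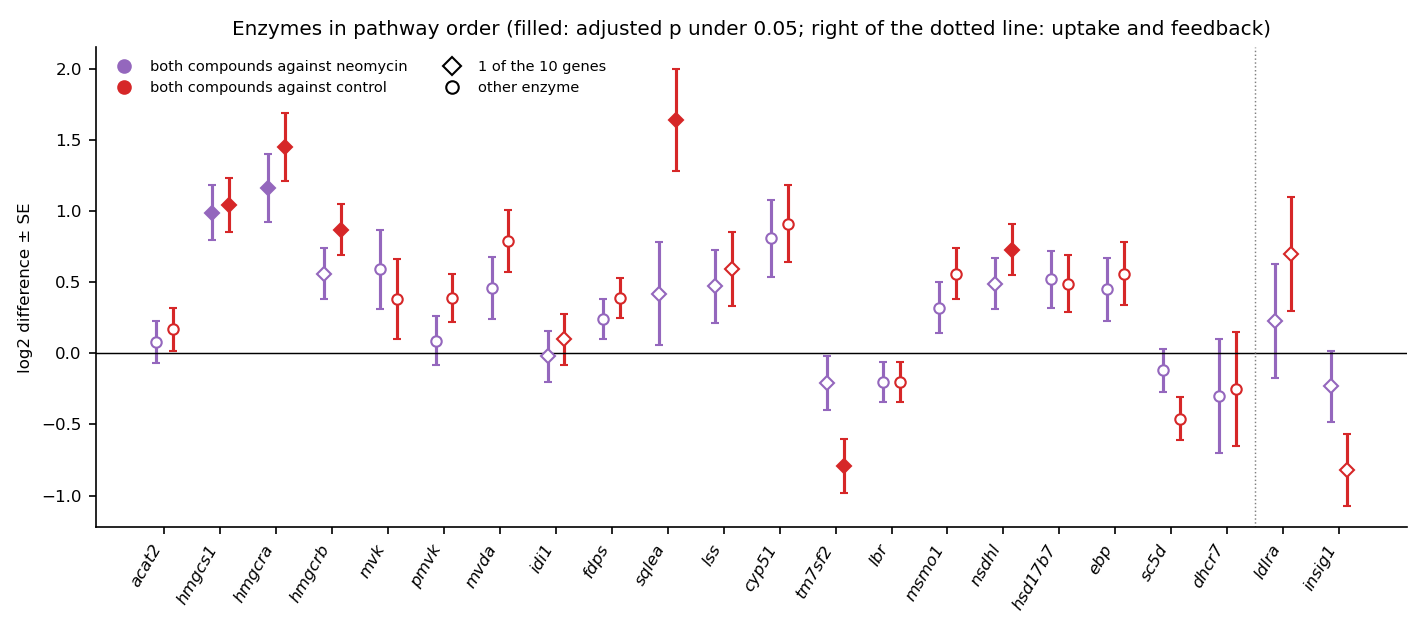
Log2 difference ± SE (y axis) of both compounds against neomycin (purple) and against control (red) for 12 of the other enzymes and the 10 genes in pathway order from left to right, with uptake and feedback right of the dotted line; diamonds are the 10 genes and filled symbols have an adjusted p under 0.05. Against control the largest rises lie at sqlea, hmgcra and hmgcs1, and against neomycin the filled points are hmgcra and hmgcs1; idi1 lies at 0.10 against control between enzymes with positive differences, and tm7sf2, lbr, sc5d and dhcr7 lie below 0.

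Of 38 listed genes of regulation, uptake, transport and storage, 24 were tested. Both compounds against control gave 2 calls lower and none higher, both compounds against neomycin 1 higher and none lower, and neomycin against control none (4 at an unadjusted p under 0.05, where 8.18% of all genes lay). Over all genes 3.37% were called higher and 2.29% lower against control, and 1.92% and 0.848% against neomycin. Their medians were -0.11, -0.07 and 0.02, where all genes gave -0.05, -0.03 and -0.01.

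insig2, the paralog of insig1 with the same retaining role in mammals, read -2.42, -2.38 and -2.16 in control larvae, -2.53, -2.57 and -2.65 after neomycin and -2.95, -2.90 and -3.19 after both compounds. The 3 groups did not overlap, in the order control, neomycin, both compounds from high to low. It fell by 0.69 against control (SE 0.14, adjusted p = 0.0246) and lost the call in 5 of the 9 fits that left out an array.

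mylipa and mylipb encode relatives of the ubiquitin ligase that marks the LDL receptor for breakdown in mammals. mylipa read 1.4, 1.29 and 1.63 in control larvae, 1.54, 1.39 and 1.12 after neomycin and 0.71, 0.78 and 0.56 after both compounds, where all 3 arrays lay below the other 6. It fell by 0.76 against control (SE 0.16, adjusted p = 0.0274, lost in 5 of 9 fits), and its difference from neomycin was -0.67 (adjusted p = 0.0644). mylipb read -1.66, -1.94 and -2.08 in control larvae, -3.13, -3.28 and -2.82 after neomycin and -2.38, -2.11 and -2.17 after both compounds, so that its neomycin arrays were the lowest. It rose by 0.85 against neomycin (SE 0.17, adjusted p = 0.0393) and lost the call in 7 of the 9 fits and under the slide block (adjusted p = 0.0641). Its difference between neomycin and control was -1.18 (adjusted p = 0.0549). These values are of the brighter of 2 tested probes of mylipb, and the dimmer one did not pass against neomycin. The transcription factor genes themselves did not pass: against control srebf2 differed by 0.25 (adjusted p = 0.337) and srebf1 by -0.23 (adjusted p = 0.441).

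Fatty acid synthesis is driven by the related factor SREBP1. Of 17 listed genes of that arm 9 were tested, and their medians were -0.05 against control, 0.09 for both compounds against neomycin and -0.12 for neomycin against control, where all genes gave -0.05, -0.03 and -0.01. No probe could be named for fasn, acaca, acacb, acss2, me1 and gpam, and the probes of scd and thrsp did not clear the background filter. These values therefore do not cover the core of the arm. None was called higher in any comparison, and 1 of the 9 was called lower against control, where 2.29% of all genes were. The desaturase scdb read -1.58, -1.56 and -1.80 in control larvae, -2.35, -1.89 and -2.26 after neomycin and -2.5, -2.33 and -2.48 after both compounds. All 6 arrays with neomycin lay below the controls, and scdb fell by 0.79 with both compounds against control (SE 0.16, adjusted p = 0.024, lost in 5 of 9 fits). The dimmer of its 2 tested probes did not pass against control. No other tested gene of the arm passed. Against neomycin no gene of the 9 had an unadjusted p under 0.05 (17.4% of all genes), and 2 had one in neomycin against control (8.18% of all genes).

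The members were compared with each other over the 9 arrays. The Pearson correlation with hmgcra was 0.94 for hmgcs1, 0.91 for nsdhl, 0.85 for hmgcrb, 0.72 for lss and 0.68 for sqlea. It was 0.38 for ldlra, 0.22 for idi1, -0.50 for insig1 and -0.62 for tm7sf2. These values describe 9 arrays that share slides and groups. Over 21020 tested probes of other named genes, the 5 genes closest to the mean centred profile of the members were gjc4b, a connexin gene (r = 0.98), slc1a4, a carrier of neutral amino acids (r = 0.961), cdh17 (r = 0.958), naa15b (r = 0.956) and elavl1a (r = 0.954). Against control slc1a4 differed by 1.54 and the other 4 by 0.30 to 0.48. Closest to hmgcra alone were zgc:66484 (r = 0.979), smn1 (r = 0.973), slc7a3a, a carrier of cationic amino acids (r = 0.971), lsm14aa (r = 0.97) and dap3 (r = 0.97). Against control zgc:66484 differed by 0.79, smn1 by 0.56 and slc7a3a by 1.46. These genes were chosen for following the members over the same 9 arrays, group differences included, so no test of their differences is given.

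Markers of 8 tissues were read beside the sterol genes, and 41 of 48 were tested. Signals of the tested markers of a tissue were summed on a linear scale, in units of the array's 75th percentile. Such a sum mostly follows the brightest probes of its list. Among the brain markers, for example, the control mean (log2) was 4.92 for stmn1b and -2.48 for elavl3. The 7 liver markers tested of 8 summed to 336 to 438 in control larvae, 300 to 327 after neomycin and 332 to 350 after both compounds, and the 7 of 8 intestine markers to 164 to 195, 150 to 180 and 154 to 170. For the 6 markers of brain and neurons the sums were 50.2 to 69.9, 51.3 to 63.3 and 50.7 to 54.8, and for 5 of 6 markers of glia and myelin 66.9 to 118, 74.2 to 90.3 and 79.0 to 102. The 6 skeletal muscle markers summed to 708 to 845, 581 to 709 and 556 to 680, and the 5 of epidermis to 528 to 725, 462 to 614 and 456 to 509. The 3 tested of 5 markers of steroid-making cells gave 4.66 to 5.48, 5.16 to 5.73 and 5.35 to 6.44. In these 7 tissues the sums of control larvae and larvae given both compounds overlapped except for muscle and epidermis, which were lower with both compounds. Between the neomycin group and either other group only the liver sums did not overlap, and they were lower after neomycin.

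The 2 tested of 4 erythroid markers, alas2 and slc4a1a, summed to 1.87 to 2.93 in control larvae, 1.31 to 2.29 after neomycin and 3.23 to 4.25 after both compounds, where the 3 arrays lay above all others. The globin gene hbba1 cleared the background flag on too few arrays to be tested. Of the 41 markers, the erythroid slc4a1a and the intestinal apoa4a rose in both compounds against neomycin (1.92% of all genes were called higher), the liver gene ahsg2 fell in both compounds against control (2.29% of all genes were called lower), and none passed in neomycin against control. Under the slide block none of these 3 passed (adjusted p = 0.0661 for slc4a1a, 0.0569 for apoa4a and 0.0703 for ahsg2). slc4a1a and apoa4a passed on 1 of 2 tested probes each, and ahsg2 on 2 of 3. The lists did not move as a whole with apoa4a or ahsg2. Against neomycin 4 of 7 intestine markers were higher with both compounds (median 0.04, range -0.76 to 1.59). Against control 2 of 7 liver markers were higher (median -0.14, range -1.19 to 0.66). Of all genes 46.3% and 44.4% were higher. The part of these tissues in the differences of the sterol genes was not tested.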

How the data were processed

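The authors deposited 1 Agilent Feature Extraction file per array, with 1 colour (Cy3). The deposited processed signal and the median spot and background signals are linear intensity values per the file headers, which name version 10.1.1.1. The submitters' processing notes name version 8.0. Deposited flags of 0 or 1 tell whether a spot was well above background, saturated or an outlier. The authors also deposited log2 values of 25265 probes as a matrix, with column medians of 7.11 or 7.12. The normalization behind it is not given in the sources used here, and it served as an alternative.

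Outlier spots were left out (3 to 9 per array, none of a member) and repeat spots of a probe were averaged as log2 values. The 75th percentile of each array was subtracted. Probes well above background on at least 3 of 9 arrays were tested (31671 of 43603), and no probe was saturated. Probes were named by RefSeq accession through the GRCz12tu annotation: 25173 have 1 symbol and 18430 none. The array was designed on an older build, so no positions are given. Probe sequences and promoters were not used here. Of the listed genes npc2, lpl and acly were matched by an older symbol to npc2.1, lpla and aclya, and mvd is counted as mvda.

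All 3 comparisons were fitted in 1 model over 9 arrays with limma 3.58.1 in R 4.3.3 (lmFit, eBayes, two-sided, with 6 residual degrees of freedom and 3.12 from the prior), and p-values were adjusted over all tested probes. Intervals are 95% intervals from the moderated fit. Precision is limited by the 9 arrays, and the median SE of a difference was 0.20. Members, lists and tests were chosen with earlier results of these data known. Named are all members on all probes, other pathway genes that pass on their brightest probe, the 4 enzymes with the smallest p otherwise, and the 5 genes nearest in profile. Values of further listed genes (srebf1, srebf2, lbr, sc5d, dhcr7 and ebp) were named after they were seen. Alternatives were 10 settings of background, scaling, filter, fit and source, and leaving out each of 9 arrays. Slide numbers equal replicate numbers per the file headers. Same-numbered arrays deviated from their group means with correlations between -0.058 and 0.342. For arrays of different number and group the correlations were between -0.383 and 0.168, and the reported fit does not model the slide. Values of 1 listed enzyme are not reported here; it remains in the counts.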

Additional observations from a re-analysis of the deposited data

How the results depend on the processing

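Over the 10 settings, the direction of each called gene stayed the same except for sqlea (-0.06) and nsdhl (-0.42) against control under normexp background correction with 75th percentile scaling. Of the genes not called, lss (-0.69) and ldlra (-0.14) turned there too. A changed filter, the slide block, the fits of only the 6 arrays compared and the intensity trend leave a member's difference as it was. Only the settings of background, scaling, source and array weights could therefore turn a direction. The count of called sterol probes was 8 of 16 against control and 2 of 16 against neomycin in the reported fit. Of all tested probes 5.92% were called against control and 2.67% against neomycin. The 8 include the fourth probe of hmgcs1, which entered the fit only through the group in which it was bright. Its call is not used as a result. It is also in the counts of the replicate block and of the fits that left out 1 array. The fit of probes well above background on all 9 arrays, given earlier, leaves that probe out. Normexp with 75th percentile scaling gave 0 and 0, and normexp with quantile normalization 3 and 1. No filter gave 5 and 0 of 18 tested, and fits of only the 6 arrays compared 4 and 1. The authors' deposited matrix gave 5 and 1 of 13 tested. Over all probes these settings called 12, 524, 496 of 43603, 700 and 893 of 25265 against neomycin. Array weights gave 8 and 7, and the replicate block (slide) 8 and 1. Over all 31671 probes array weights called 3718 against neomycin and the replicate block 843, where the reported fit called 846. Shares of all probes against control are not given here for most settings. A moved member count is therefore not read as particular to the members. Leaving out 1 array gave 2 to 7 against control and 0 to 2 against neomycin, where fewer arrays were tested. In neomycin against control the count was 0 in all settings.

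The median over the members against control, 0.72 as reported, was -0.10 and 0.26 with normexp (75th percentile, quantile) and 0.36 in the authors' matrix. Against neomycin, 0.45 became 0.09, 0.11 and 0.18, and for neomycin against control 0.18 became -0.27 with normexp and 75th percentile scaling. The normexp setting adds 50 to every spot, and most members' signals were below 150 on control arrays; the cause was not tested further. Leaving out 1 array gave 0.61 to 0.85, 0.30 to 0.59 and 0.11 to 0.26.

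Called genes among the 46 tested genes of the other pathway lists numbered 3 against control, all lower, 1 against neomycin, which was higher, and 0 for neomycin against control. Of all genes with 1 probe each, 5.66%, 2.76% and 0.159% were called in these comparisons. Against control normexp with 75th percentile scaling gave 0, the filter on all 9 arrays 7, the replicate block 5, array weights 8 and an intensity trend 7. The filter on all 9 arrays called 7.96% of all its probes against control and 3.7% against neomycin. It tested 43 of the 46 genes, as did the authors' matrix. Over all probes against neomycin, array weights called 3718, the trend 1112 and the block 843, where the reported fit called 846. Shares of all probes against control are not given here for the block, weights and trend. These counts are therefore not read as particular to the lists. Against neomycin both normexp settings, no filter, the replicate block and the 6-array fits gave 0, the filter on all 9 arrays, the authors' matrix and the trend 2, and array weights 3. For neomycin against control the filter, the 6-array fit, weights and the trend gave 1. Leaving out 1 array gave 0 to 3, 0 to 1 and 0 to 1. Over all probes the counts of 37, 846 and 1875 ranged from 0 to 195, 12 to 3718 and 67 to 3008. With the replicate block, hmgcs1 against neomycin and sqlea against control were lost and insig1 against control was gained; it changed no other call of a member gene's brightest probe.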
